A study of Mus musculus with 36 samples.

Results

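Teneurins and latrophilins were examined as genes that carry DNA lesions. The 6 genes were Tenm2, Tenm3 and Tenm4, which encode teneurins, and Adgrl1, Adgrl2 and Adgrl3, which encode latrophilins. They were chosen by symbol, with earlier lesion levels of these data known, out of 49943 annotated genes. Every nucleotide position with a single-strand break (SSB) or an apurinic/apyrimidinic site (AP site, a base lost from the sugar backbone) between the first and the last base of a gene was counted. The material came from 2 male C57BL/6J mice aged 24 months, the only age analysed here, and no genetic change or treatment was named in the labels. Brain, heart, liver, bone marrow depleted of red cells, peripheral blood mononuclear cells (PBMCs) and motile sperm from the epididymal tail were each profiled with SSiNGLe for SSBs and with SSiNGLe-AP for AP sites, 2 libraries per tissue and assay, 24 in all. The RNA profiles of the same samples were not analysed here, and the labelled tissues could not be checked against expressed markers. Sperm DNA was purified with another kit than the DNA of the other 5 tissues, so that kit and tissue cannot be told apart for sperm.

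Teneurins are large transmembrane adhesion proteins of the neuronal surface, and latrophilins are adhesion G protein-coupled receptors that bind them across the synaptic cleft. The pair takes part in choosing synaptic partners while neural circuits form. Latrophilins also bind FLRT proteins, which in turn bind the UNC5 netrin receptors, so that these families form a connected set of cell surface partners.

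The lesion level of a gene was expressed as LPKM-SSB or LPKM-AP, which is 1e+09 times the positions in a gene over the product of its length in bp and the library's total. The SSB libraries held 225011 to 1041983 positions and the AP libraries 460719 to 963258. The 6 genes together held 475 to 2328 SSB positions per library (0.189% to 0.243% of the library) and 1034 to 2213 AP positions (0.219% to 0.255%). Summed over the 12 libraries, a gene rested on between 273 SSB positions for Adgrl1 and 3671 for Tenm2, and on between 326 and 6440 AP positions for the same 2 genes. Adgrl1 had only 8 to 49 SSB positions per library, and counting error alone was 23.9% of its level, close to the observed spread of 23.6% over the 12 libraries. All 6 genes passed the filter on low values in both assays. The labels gave 2 animals for all tissues, so p-values below measure the spread between libraries and not between many animals.

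Tenm2 occupied chr11:36006656-37237053 on the minus strand, Tenm3 chr8:48225665-49522824 on the minus strand and Tenm4 chr7:96171244-96911093 on the plus strand of GRCm38. Adgrl1 lay at chr8:83900098-83941954 on the plus strand, Adgrl2 at chr3:148815586-148989096 on the minus strand and Adgrl3 at chr5:81019085-81827825 on the plus strand. The teneurin genes and Adgrl3 thus spanned 739850 to 1297160 bp, Adgrl2 173511 bp and Adgrl1 41857 bp. The annotation used here gave whole spans without exons, so exonic and intronic lesions were counted together. Other annotated genes, mostly long noncoding RNAs, covered 23.0% of Adgrl1 (Gm10644 at its 3′ end), 16.5% of Tenm3, 9.78% of Tenm2 and 0% to 1.97% of the other 3. A lesion in such a stretch was counted for both genes.

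The stretches before annotated transcription starts show how sparse the lesions were at single-nucleotide scale. Of 32851 such stretches of 250 bases from RefSeq (GRCm38.p6) genes, the median held 3 lesion positions over all 24 libraries, 17.4% held none, and the median GC content was 52.4%. The table of starts held 9 for the 6 genes, and the positions per stretch ranged from 0 to 7. The 4 sequences below were chosen because they are the fullest stretch of each long gene. They are written 5′ to 3′ on the strand of the gene, and capitals mark nucleotides with a lesion on either strand in at least 1 library.
Adgrl3, chr5:81021343-81021592, plus strand: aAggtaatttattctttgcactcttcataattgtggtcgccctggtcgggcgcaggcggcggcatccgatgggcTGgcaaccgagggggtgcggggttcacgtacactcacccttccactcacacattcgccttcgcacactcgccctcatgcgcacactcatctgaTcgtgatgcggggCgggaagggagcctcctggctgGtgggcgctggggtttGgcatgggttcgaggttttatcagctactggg
Tenm3, chr8:48674691-48674940, minus strand: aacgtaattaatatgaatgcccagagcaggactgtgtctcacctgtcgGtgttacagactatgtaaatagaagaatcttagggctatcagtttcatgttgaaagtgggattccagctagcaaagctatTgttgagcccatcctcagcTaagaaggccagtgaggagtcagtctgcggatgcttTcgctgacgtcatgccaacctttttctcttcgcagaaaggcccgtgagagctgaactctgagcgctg
Tenm4, chr7:96170994-96171243, plus strand: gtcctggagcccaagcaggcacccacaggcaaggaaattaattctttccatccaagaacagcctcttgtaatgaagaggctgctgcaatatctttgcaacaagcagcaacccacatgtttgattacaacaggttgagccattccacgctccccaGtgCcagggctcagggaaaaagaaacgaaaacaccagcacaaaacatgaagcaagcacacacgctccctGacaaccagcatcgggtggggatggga
Tenm2, chr11:36944242-36944491, minus strand: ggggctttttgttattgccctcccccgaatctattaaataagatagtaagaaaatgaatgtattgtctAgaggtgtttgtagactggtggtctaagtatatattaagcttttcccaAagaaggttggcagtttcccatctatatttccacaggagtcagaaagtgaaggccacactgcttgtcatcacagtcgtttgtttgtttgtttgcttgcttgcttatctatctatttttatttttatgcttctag

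The Adgrl3 stretch carried 4 SSB and 3 AP positions in 6 libraries, a total that 14.3% of all such stretches reached. Its GC content was 60.0% with 18 CpG dinucleotides, and the start that follows it lay 2.51 kb inside the annotated span. The Tenm3 stretch held 1 SSB and 3 AP positions (GC 47.6%) and the Tenm4 stretch 2 SSB and 1 AP positions (GC 50.8%). The Tenm2 stretch was the most AT-rich of the 4 (GC 37.2%, 2 CpG) and held 2 AP positions and no SSB. The starts of Tenm2 and Tenm3 in this table lay 293 kb and 848 kb inside their spans. No lesion fell before the annotated start of Adgrl2 (GC 37.6%), and 1 SSB fell before that of Adgrl1 (GC 68.8%). No nucleotide of these genes was hit in more than 3 libraries of an assay, and 0.148% to 0.738% of their SSB nucleotides recurred in a second library, against 0.519% genome-wide. For AP sites the shares were 1.13% to 1.60% against 1.45%.

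Among the chosen genes, the teneurin genes carried intermediate SSB levels, with bone marrow at the bottom for Tenm2 and Tenm3. These levels by tissue were what the choice of genes rested on, and they are given as a description. LPKM-SSB of Tenm2 was 0.434 and 0.427 in the 2 bone marrow libraries, 0.549 and 0.516 in PBMCs, 0.552 and 0.534 in heart, 0.534 and 0.553 in liver, 0.531 and 0.579 in brain and 0.616 and 0.642 in sperm. Both bone marrow libraries lay below all others and both sperm libraries above all others, while PBMCs, heart, liver and brain overlapped. Sperm was 1.46 times bone marrow for Tenm2. The same ratio was 1.51 in the 5′ part of the span and 1.42 in the 3′ part, which together make up that level and give no separate support.

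Tenm3 had the same lowest and highest tissues with wider replicates. Its LPKM-SSB was 0.356 and 0.418 in bone marrow, 0.373 and 0.441 in PBMCs, 0.482 and 0.417 in liver, 0.430 and 0.504 in heart, 0.473 and 0.472 in brain and 0.502 and 0.479 in sperm. PBMCs overlapped bone marrow, liver and heart, and liver overlapped bone marrow and heart. Both heart libraries lay above both of bone marrow, and the sperm and brain libraries all lay above those of bone marrow and PBMCs. The ratio of sperm to bone marrow was 1.27. Tenm4 had the most even profile of the 6 genes. Its LPKM-SSB was 0.678 and 0.716 in bone marrow, 0.636 and 0.677 in brain, 0.663 and 0.623 in heart, 0.655 and 0.685 in liver, 0.763 and 0.628 in PBMCs and 0.681 and 0.655 in sperm. Each tissue overlapped its neighbour in the order of means, the highest tissue mean was 1.08 times the lowest, and the spread over 12 libraries (5.84%) was below the counting error (7.25%).

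Among the latrophilins, Adgrl3, the receptor with the longest gene, had the lowest SSB level of the 6 genes and a tissue order like that of Tenm2. Its LPKM-SSB was 0.251 and 0.309 in bone marrow, 0.346 and 0.340 in PBMCs, 0.382 and 0.341 in heart, 0.355 and 0.372 in liver, 0.400 and 0.334 in brain and 0.386 and 0.408 in sperm. Both bone marrow libraries were below the other 10, and sperm was 1.42 times bone marrow. Adgrl2 departed from this order, with liver lowest. Its LPKM-SSB was 0.530 and 0.540 in liver, 0.679 and 0.659 in bone marrow, 0.717 and 0.622 in PBMCs, 0.594 and 0.813 in heart, 0.638 and 0.807 in brain and 0.907 and 0.931 in sperm. Sperm was 1.72 times liver, on 104 and 102 positions, and stood above all other libraries. Neither Adgrl3 nor Adgrl2 passed the tissue test given below.

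Adgrl1, the shortest of the 6 genes, had the highest density of SSBs and the widest replicates. Its LPKM-SSB was 1.61 and 1.21 in bone marrow, 1.45 and 1.35 in brain, 1.49 and 0.937 in PBMCs, 1.23 and 1.12 in heart, 1.21 and 0.686 in sperm and 0.803 and 1.06 in liver. Every tissue overlapped the next in the order of means. Unlike Tenm2, Tenm3 and Adgrl3, Adgrl1 had its highest mean in bone marrow, and sperm was 0.670 times bone marrow. Over the 12 libraries the mean LPKM-SSB was 1.18 ± 0.278 (SD, n = 12), the percentile 87.1 among all genes tested, whereas Adgrl3 with 0.352 ± 0.0434 stood at percentile 16.9. Between them lay Adgrl2 with 0.703 ± 0.134, Tenm4 with 0.672 ± 0.0392, Tenm2 with 0.539 ± 0.0623 and Tenm3 with 0.446 ± 0.0481. These levels are per length, but LPKM-SSB was still lower in longer genes. The median was 0.628 over all genes tested, 0.475 over those above 100 kb and 0.373 over those above 500 kb. Adgrl3 lay slightly below the median of the genes above 500 kb, and Tenm2, Tenm3 and Tenm4 lay above it. The percentiles among all genes therefore mix level with length, and the part of length in the contrasts between genes was not tested.

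**Figure D1:**
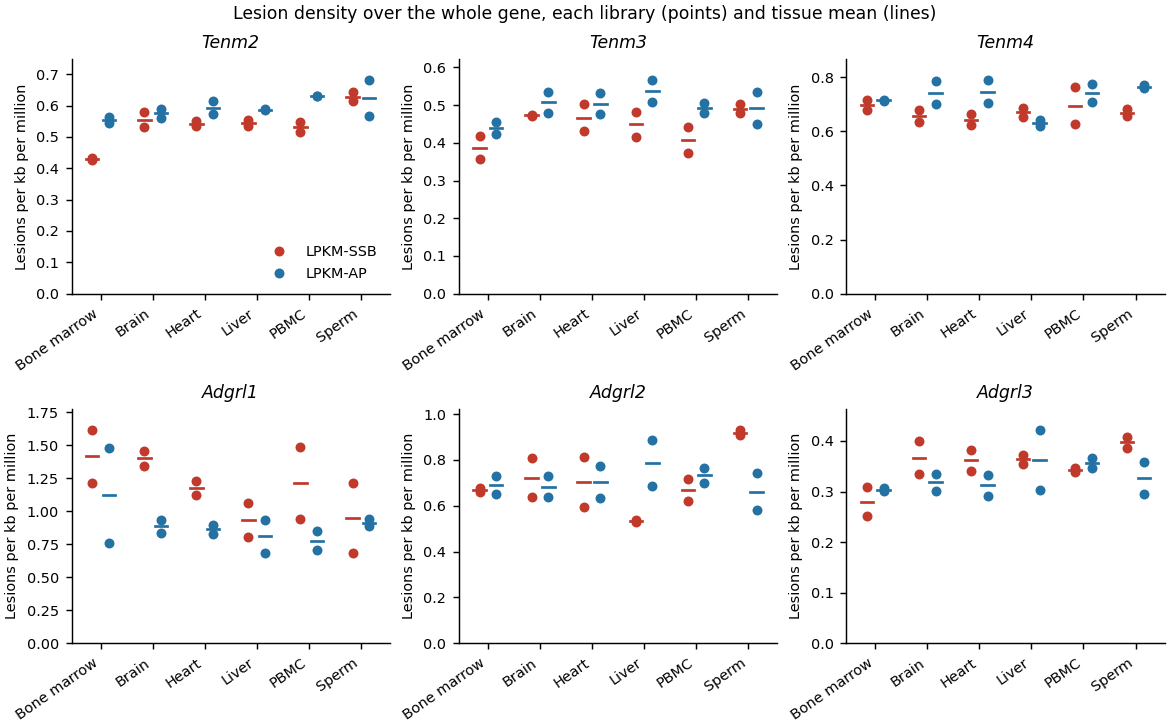
LPKM-SSB (red) and LPKM-AP (blue) of the 6 genes on the y axis by tissue on the x axis, with each library as a point and the mean of 2 libraries as a line. Bone marrow is lowest for SSBs in Tenm2, Tenm3 and Adgrl3, while Tenm4 is nearly level and the points of Adgrl1 scatter within tissues.

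For AP sites the tissue means of 5 of the 6 genes covered a narrower range than for SSBs, and those of Tenm4 a wider one (1.21 times from lowest to highest, against 1.08). LPKM-AP of Tenm2 ran from 0.546 in a bone marrow library to 0.680 in a sperm library, and the mean of PBMCs was 1.14 times that of bone marrow. The 2 PBMC libraries of Tenm2 were 0.630 each, and sperm, with 0.567 and 0.680, straddled them. Bone marrow was again lowest for Tenm3, with 0.423 and 0.454 against 0.565 and 0.509 in liver (1.22 times). It was also lowest for Adgrl3, with 0.300 and 0.307 against 0.422 and 0.303 in liver (1.19 times), but here the libraries of the 2 tissues overlapped. Tenm4 was lowest in liver (0.641 and 0.619) and highest in sperm (0.770 and 0.759). Adgrl1 (0.687 to 1.48 over the 12 libraries) and Adgrl2 (0.580 to 0.888) had overlapping libraries even between their highest and lowest tissues. A single bone marrow library at 1.48 set the highest AP value of Adgrl1, and the other bone marrow library was at 0.758.

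In edgeR's quasi-likelihood F test over the 6 tissues, with Benjamini-Hochberg adjustment over all genes, 0.125% of 38486 genes passed an adjusted p of 0.05 for SSBs, and Tenm2 (adjusted p = 0.00107) and Tenm3 (adjusted p = 0.0117) were 2 of them. Since the genes were chosen on this contrast, nothing is read from that count. Adgrl3 (adjusted p = 0.150), Adgrl2 (0.428), Adgrl1 (0.992) and Tenm4 (0.995) did not pass the same edgeR test. Without TMM scaling and in DESeq2 no gene of the 6 was called, nor without bone marrow replicate 1, heart replicate 1, liver replicate 1 or either sperm library. Most of the genes called were long, and 15.7% of the 236 tested genes over 500 kb passed. Among those 236, the SSB mean was lowest in bone marrow for 65.7% and highest in sperm for 63.6%, with a median ratio of sperm to bone marrow of 1.25. Over the 33508 of 38486 tested genes with a bone marrow mean above 0, the median ratio was 0.831. Genes with no sperm position stayed in with a ratio of 0, which lowers that median. For AP sites no gene of 41374 passed in edgeR (0% called), 1219 had an unadjusted p under 0.05, and DESeq2 also called 0.

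The genes whose LPKM-SSB ran most like that of a member over the 12 libraries were sought among 943 genes with a mean of at least 50 positions. That minimum itself selects long genes, so nothing is read from the length of the closest ones. For Tenm2 they were Ctnna2 (r = 0.954) and Ptprd (r = 0.927), for Tenm3 Cdh12 (r = 0.898) and Lrp1b (r = 0.872), and for Adgrl3 Dst (r = 0.902) and Nrxn3 (r = 0.880). Among pairs of the 6 genes, r was 0.803 for Tenm2 and Adgrl3, 0.629 for Tenm3 and Adgrl3 and 0.588 for Tenm2 and Tenm3. Adgrl2 had r = 0.453 with Tenm2, 0.347 with Tenm3 and 0.119 with Adgrl3. Adgrl1 had r = -0.432 with Tenm2, -0.505 with Tenm3 and -0.458 with Adgrl3. The choice of genes rested on these levels, so nothing is read from these pairs. Tenm4 had r = -0.613 with Tenm3, but its SSB spread over the 12 libraries (5.84%) was below its counting error (7.25%). Nothing is therefore read from the SSB correlations of Tenm4. The profile of Tenm4 was closest to Fryl (r = 0.875), and that of Adgrl2 to Col23a1 (r = 0.843). For AP sites, among 1904 genes, Mef2c was closest to Tenm2 (r = 0.833), Kirrel3 to Tenm4 (r = 0.855), Prrc2b to Adgrl1 (r = 0.904) and Kcnq5 to Adgrl3 (r = 0.927). These are Pearson correlations of log2 levels over 12 libraries that share 6 tissues and their depths, and the closest genes were picked as the maximum of many.

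Lesions were not spread evenly along the teneurin genes. Dividing each span at its midpoint, a division that the choice of genes did not use, gave fewer lesions in the 5′ part than in the 3′ part for Tenm2, Tenm3 and Tenm4 in both assays. Tenm3 had the steepest difference, with 1275 SSB positions in its 5′ part and 1973 in its 3′ part, so that 39.3% (95% binomial interval 37.6% to 40.9%, Wilson) were 5′. The number of SSB positions of Tenm3 was lower in the 5′ part in all 12 libraries, from 94 against 118 in a bone marrow library to 38 against 71 in a PBMC library. The mean log2 ratio of the 5′ to the 3′ part was -0.63 ± 0.20 (SD, n = 12) and edgeR's quasi-likelihood test with library as a block gave an adjusted p of 4.21e-29. The 3′ part was called higher for 3.92% of 25415 genes, and the 5′ part for 3.36%, together 7.28%, and for 3 of the 6 genes, all teneurins, the 3′ part was called higher.

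Tenm2 had 1580 SSB positions in its 5′ part and 2091 in its 3′ part, and the 5′ part was lower in 12 of 12 libraries. The log2 ratio was -0.41 ± 0.15 (SD, n = 12; adjusted p = 2.29e-13, edgeR). In Tenm4 the counts were 1200 and 1510, and the ratio of -0.33 ± 0.23 was negative in 11 of 12 libraries (adjusted p = 1.17e-06, edgeR). The exception was a sperm library with 99 SSB positions in the 5′ part and 90 in the 3′ part. For AP sites the ratios were -0.47 ± 0.19 for Tenm2, -0.57 ± 0.19 for Tenm3 and -0.24 ± 0.14 for Tenm4 (adjusted p = 2.53e-31, 1.65e-39 and 2.14e-07 in edgeR), against a background in which the 3′ part was called higher for 11.6% of 26017 genes the 5′ part for 5.85% and either for 17.5%.

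Higher 3′ parts were common among very long genes. The 3′ part was called higher in 35.5% of the 183 tested genes over 500 kb for SSBs and in 49.2% for AP sites, and the 5′ part in 11.5% and 12.6%. TMM scaling moved the all-gene median of the AP ratio from -0.059 to 0.057 and the share of calls with a higher 5′ part from 33.5% to 50.4%. The 3 teneurin genes passed under TMM as well, with AP ratios of -0.35, -0.44 and -0.14 (adjusted p = 6.62e-17, 1.03e-23 and 0.0173, edgeR).

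Adgrl3, although of the same length class, had no such slope. It had 802 SSB positions in its 5′ part and 759 in its 3′ part, a log2 ratio of 0.099 ± 0.27 (adjusted p = 0.623, edgeR), and 1175 and 1162 AP positions (0.016 ± 0.17, adjusted p = 0.902). Adgrl2 likewise did not pass in either assay, with 342 and 336 SSB positions and 515 and 563 AP positions. In Adgrl1 the AP positions numbered 134 in the 5′ part and 192 in the 3′ part (log2 ratio -0.52 ± 0.49, higher in the 5′ part in 1 of 12 libraries, adjusted p = 0.0142, edgeR). That call was lost when positions shared with the overlapping Gm10644 and other genes were left out (adjusted p = 0.248), with TMM (0.0844), in DESeq2 (0.0759) and without PBMC replicate 2 (0.0632). The SSB positions of Adgrl1, 120 and 153, did not pass (adjusted p = 0.277).

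**Figure D2:**
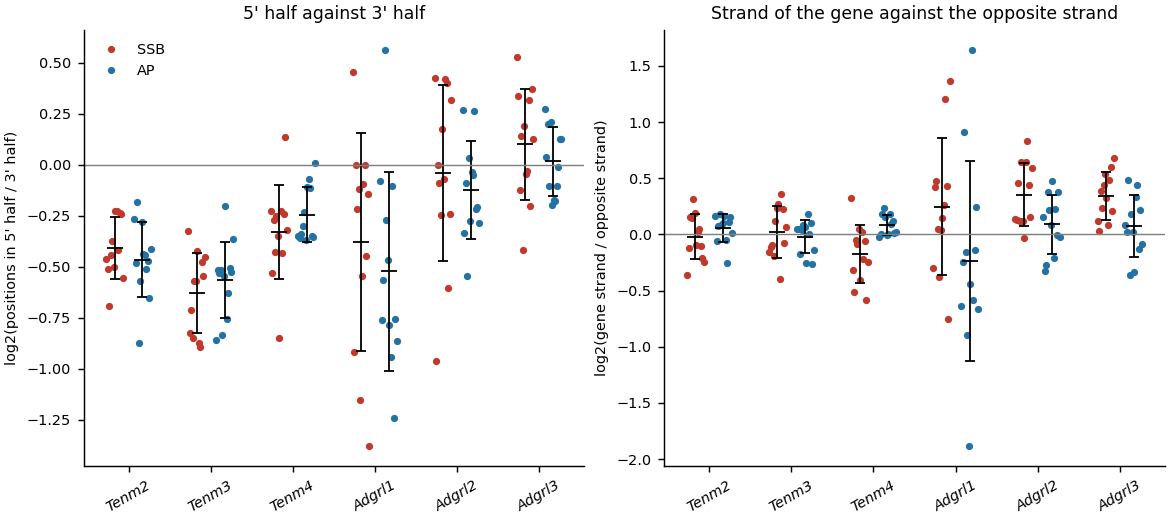
Log2 ratios within each library on the y axis for the 6 genes on the x axis, 5′ part over 3′ part on the left and strand of the gene over opposite strand on the right, for SSBs (red) and AP sites (blue). Points are 12 libraries per assay and black bars are the mean and SD. All points of Tenm2 and Tenm3 lie below 0 on the left, and all SSB points of Adgrl3 lie above 0 on the right.

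Bins of 100 kb were laid from the 5′ end. A last stretch too short for a bin was left out in Tenm2, Tenm4 and Adgrl3. In these bins, the LPKM-SSB of Tenm2 was 0.422 in the first 100 kb. Between 1100 and 1200 kb from the 5′ end, Tenm2 had 0.786, 1.86 times as high. Its AP density was lowest at 200 to 300 kb (0.435) and highest in the same bin as SSBs (0.764). Tenm3 was lowest at 300 to 400 kb in both assays (0.290 for SSBs and 0.356 for AP sites). It peaked at 1000 to 1100 kb for SSBs (0.591) and at the last bin for AP sites (0.672). Tenm4 was lowest in its first 100 kb in both assays (0.480 and 0.550), and reached 0.848 for SSBs at 500 to 600 kb. The profile of Adgrl3 was the reverse at its start, where the first 100 kb was the densest bin for SSBs (0.482 against 0.277 at 200 to 300 kb) and for AP sites (0.413 against 0.274 at 400 to 500 kb).

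The 2 lesion types followed each other along the long genes. Across bins, the pooled SSB and AP densities correlated with Pearson's r of 0.880 for Tenm2 (12 bins), 0.951 for Tenm3 (13 bins), 0.945 for Tenm4 (7 bins) and 0.916 for Adgrl3 (8 bins). Neighbouring bins and both assays share the same genome sequence and DNA samples, so these values are descriptions. In bins of 10 kb, r was 0.147 for Adgrl2 (17 bins) and 0.050 for Adgrl1 (4 bins). With 26 to 61 SSB positions in its lowest and highest bins, Adgrl2 gave little precision at that scale.

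**Figure D3:**
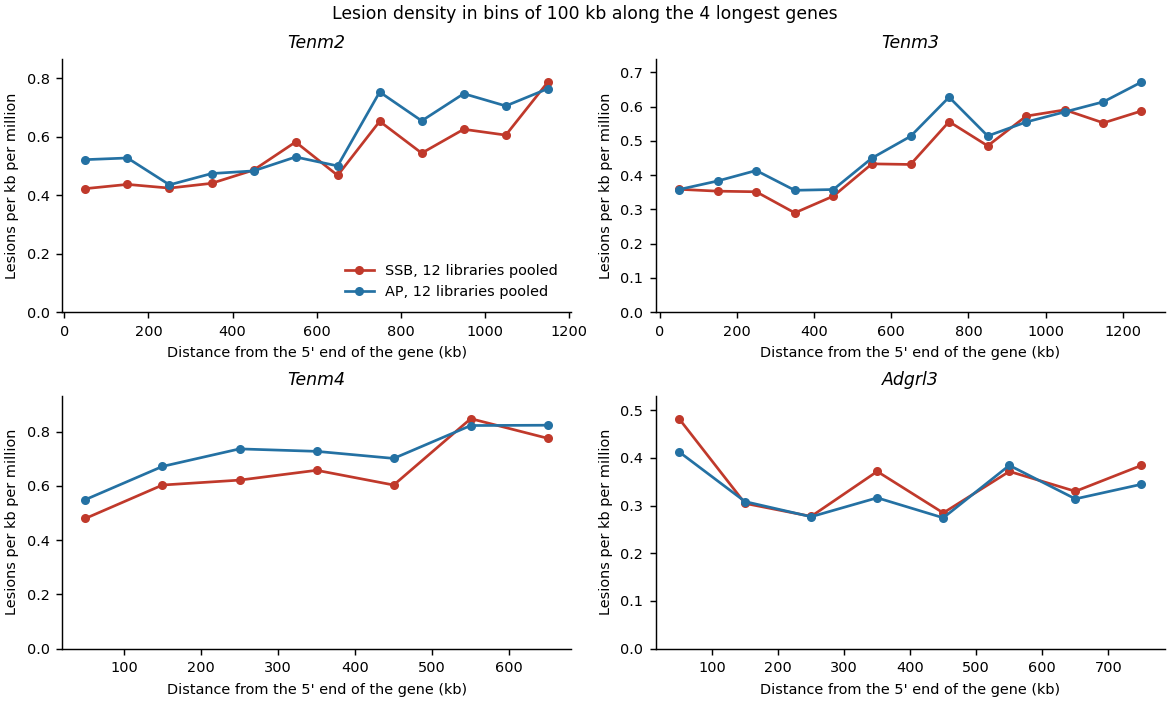
Pooled LPKM-SSB (red) and LPKM-AP (blue) of 12 libraries on the y axis in bins of 100 kb against distance from the 5′ end of the gene in kb on the x axis. Density is mostly higher toward the 3′ end in Tenm2, Tenm3 and Tenm4, though not bin by bin, and the first bin is the highest in Adgrl3. The last stretch of Tenm2, Tenm4 and Adgrl3, too short for a bin, is not shown.

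The ends of the genes differed most clearly between Adgrl3 and Tenm3. Within 5 kb either side of the 5′ end of its span, Adgrl3 had an LPKM-SSB of 1.05 (58 positions, 95% Poisson interval 0.798 to 1.36), against 0.350 for the whole gene pooled over libraries. Its LPKM-AP there was 0.601 (0.450 to 0.786) against 0.327. At its 3′ end Adgrl3 had only 10 SSB positions (0.181, interval 0.0869 to 0.333). Adgrl2 also had a dense 5′ end for SSBs, with 1.38 (1.09 to 1.72) against 0.708 for the gene, but not for AP sites (0.703 against 0.704). Adgrl1 had no dense 5′ end, with 1.16 against 1.18 for SSBs and 0.737 against 0.883 for AP sites.

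Tenm3 was the opposite, with an LPKM-SSB of 0.399 (0.250 to 0.604) at the 5′ end and 0.870 (0.641 to 1.15) at the 3′ end, and with 0.408 and 1.04 for AP sites. Tenm2 and Tenm4 had 0.743 and 0.707 at the 5′ end for SSBs and 0.707 and 0.942 at the 3′ end. Tenm2 was above its gene level of 0.541 at both, but both intervals (0.533 to 1.01 and 0.503 to 0.966) included that level. No test compared the ends between the gene families. For comparison, the median over 2092 genes longer than 100 kb was 1.30 times the gene's own level at the 5′ end and 1.18 times at the 3′ end for SSBs, and 1.12 and 1.22 times for AP sites. The intervals cover counting error only.

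The strand test gave a single call among the 6 genes for SSBs. SSBs of Adgrl3 lay more often on the strand of the gene (881 positions) than on the opposite strand (680), a share of 56.4% (95% binomial interval 54.0% to 58.9%, Wilson). The strand of the gene was ahead in all 12 libraries, from 30 against 29 in a bone marrow library to 57 against 35 in a sperm library. The log2 ratio was 0.34 ± 0.21 (SD, n = 12, adjusted p = 0.00071, edgeR with library as a block). Over its 8 bins of 100 kb, the share on the strand of the gene ran from 50.2% at 500 to 600 kb to 62.4% in the first. The plus strand, which is that of Adgrl3, held 50.2% to 50.6% of all SSB positions of a library. The strand of the gene was called higher for 2.58% of 25415 genes, the opposite strand for 0.0748% and either for 2.65%. Among the 183 tested genes over 500 kb, to which Adgrl3 belongs, the strand of the gene was called higher for 29.5%. Adgrl2 had 371 and 307 SSBs, with the strand of the gene ahead in 11 of 12 libraries, and did not pass (0.35 ± 0.28, adjusted p = 0.157).

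The teneurin genes showed no such excess. Tenm2 had 1836 SSBs on the strand of the gene and 1835 on the other, and Tenm3 1619 and 1629. Tenm4 had 1310 and 1400, with the opposite strand ahead in 9 of 12 libraries after division by the strand totals (log2 ratio -0.17 ± 0.26, adjusted p = 0.319, edgeR). Most genes leaned toward their own strand, with a median log2 ratio of 0.18 over all genes and 0.16 over the 183 genes above 500 kb. TMM scaling, which sets ratios against the bulk of genes, moved the all-gene median from 0.18 to 0.026 and the share of calls with the gene's strand higher from 97.2% of 674 to 70.2% of 114. On that scale Adgrl3 was at 0.19 and no longer passed (adjusted p = 0.361), and Tenm4 was at -0.29 and passed with the opposite strand higher (adjusted p = 0.00103). Thinning all libraries to 225011 positions also ended the call of Adgrl3 (0.31, adjusted p = 0.171).

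AP sites showed little strand difference. Adgrl3 had 1222 AP positions on the strand of the gene and 1115 on the opposite strand (52.3%), Tenm4 2502 and 2273 (52.4%) and Tenm3 2737 and 2894 (48.6%), and the log2 ratios divided by strand totals ranged from -0.24 for Adgrl1 to 0.091 for Adgrl2. None of the 6 genes passed, and 0.0192% of 26017 genes did in either direction (0.00769% with the gene's strand higher, 0.0115% with the opposite one). DESeq2 called 0 genes, and 1572 had an unadjusted p under 0.05 in edgeR. Adgrl1, with 152 and 174 AP positions, had ratios from -1.88 to 1.64 in single libraries, with 14 to 38 positions per library.

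Set against each other in the same sample, SSBs and AP sites had different weights in Adgrl1 and the teneurin genes. LPKM-SSB was below LPKM-AP in 10 of 12 samples for each teneurin gene, with mean log2 ratios of -0.15 ± 0.15 for Tenm2, -0.16 ± 0.16 for Tenm3 and -0.11 ± 0.12 for Tenm4 (SD, n = 12). Adgrl1 had the higher LPKM-SSB in 11 of 12 samples (0.39 ± 0.37). For Adgrl2 (-0.030 ± 0.36) and Adgrl3 (0.091 ± 0.24) LPKM-SSB was the higher in 5 and 7 of 12 samples. The median over 943 genes with a mean of at least 50 positions in both assays was -0.053, and the percentiles 5 and 95 were -0.21 and 0.14, with the 5 genes other than Adgrl1 inside that range. Adgrl1 was above it, but with 273 SSB and 326 AP positions over 12 libraries it was under that minimum, so that its counting error was larger than that of the 943 genes. No test compared the families.

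The partner genes were read from a list of 9. Tenm1, the remaining teneurin and an X-linked gene, had the lowest levels of the system, with an LPKM-SSB of 0.111 ± 0.0265 and an LPKM-AP of 0.113 ± 0.0176 (SD, n = 12). Males carry a single X, and the part of that in the level was not tested. Like the other teneurins, Tenm1 had fewer lesions in its 5′ part (log2 ratio -0.44 and adjusted p = 0.0114 for SSBs, -0.51 and 4.97e-06 for AP sites, edgeR). Adgrl4, an adhesion receptor of endothelium that is grouped with the latrophilins by sequence, was at 0.355 ± 0.0684 for SSBs, close to Adgrl3.

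The FLRT ligands ranged from 0.517 ± 0.150 (Flrt2) to 1.11 ± 0.245 (Flrt1) in LPKM-SSB, and Flrt3, at 13279 bp the shortest, held only 46 SSB positions in all. Among the netrin receptors, the shorter genes Unc5a (1.03 ± 0.312) and Unc5b (1.13 ± 0.199) were above the longer Unc5c (0.440 ± 0.0816) and Unc5d (0.419 ± 0.0630). Unc5c and Unc5d shared only the extremes of Tenm2, lowest in bone marrow and highest in sperm (ratios 1.68 and 1.32). Unc5a had these extremes reversed, with 1.47 in bone marrow and 0.697 in sperm. Of the 9 genes, 0 passed the tissue test in either assay, 1 had a called higher 3′ part for SSBs (Tenm1), and for AP sites 1 was called in each direction (Tenm1 3′, Unc5b 5′). The strand test, possible for 7 of them, called 0. Their median log2 strand ratio for SSBs was -0.077, against 0.067 for the 6 main genes and 0.18 for all genes.

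**Figure D4:**
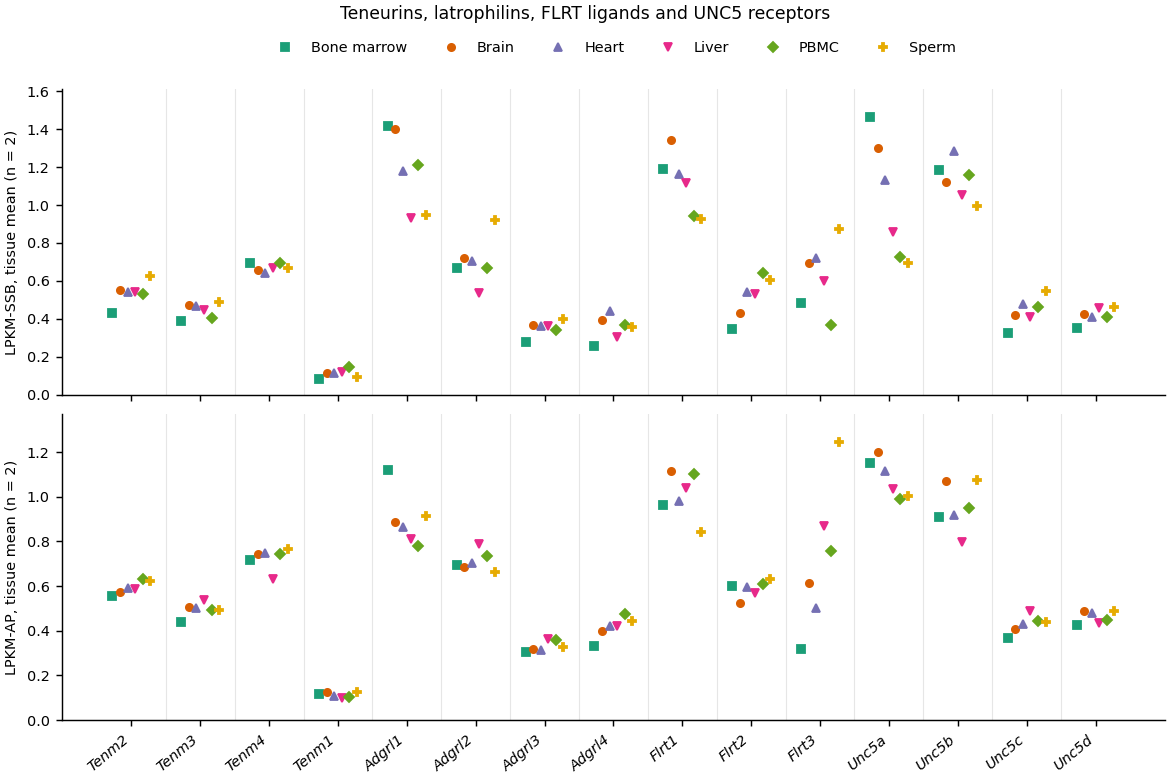
Mean LPKM-SSB (top) and LPKM-AP (bottom) of 2 libraries per tissue on the y axis for the 6 main genes and the 9 partners on the x axis, with tissues by colour and symbol. Tenm1 lies lowest in both panels, and Adgrl1, Flrt1, Unc5a and Unc5b lie highest on average for SSBs. Flrt3, the shortest gene shown, lies below them.

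The other 25 adhesion G protein-coupled receptor genes gave the family background of the latrophilins. Their mean LPKM-SSB ranged from 0.133 (Adgre1) to 1.32 (Celsr3) with a median of 0.690, and the median of the 6 main genes was 0.605. Only Adgrb3, a synaptic receptor for C1q-like proteins, passed the tissue test for SSBs (0.274 in bone marrow, 0.425 in sperm, adjusted p = 0.0117, edgeR). Of the 17 with a known strand, Adgra3 had a called excess on its own strand (log2 ratio 0.52, adjusted p = 0.0352). A higher 3′ part was called for Adgrg5 in SSBs and for Adgrb3, Adgrg5 and Adgrg6 in AP sites. The median SSB ratio of sperm to bone marrow was 0.966 in this list, against 1.32 in the 6 main genes and 1.32 in the 9 partners. The 6 main genes were chosen on such levels, so nothing is read from that contrast. The ratio also went with length. Its median was 0.831 over the 33508 genes with a bone marrow mean above 0, 1.03 over those above 100 kb and 1.25 over those above 500 kb. The part of the left-out genes in this was not tested. Adgrb3 and Adgrv1, the receptors of this list above 500 kb, had 1.55 and 1.26.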

How the data were processed

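The authors deposited, for each library, single-nucleotide lesion positions with strand and a raw count, neither normalized nor pooled; the build, per the labels, was mm10/GRCm38, and the aligner and filters are not given in the sources used here. No column was left unmapped. Each position was counted once over the whole span of a RefSeq gene on chromosomes 1 to 19, X and Y, because the annotation used here has no exons. LPKM was positions times 1e+09 divided by span and library total. Genes nonzero in at least 20% of the libraries of an assay were tested with edgeR 4.0.16 (R 4.3.3) by its quasi-likelihood test with Benjamini-Hochberg adjustment and a threshold of 0.05. Tissues were compared with TMM. Strands and gene parts were compared within libraries, with library as a block and strand totals or library totals as size, in the 27025 genes whose strand was known. For ratios within a library, 0.5 was added to both counts, and strand ratios were divided by the ratio of the strand totals. DESeq2 1.42.0, other scalings, filters, summed counts, thinning, overlapping genes and left-out libraries were alternatives. Genes most alike were ranked by Pearson's r of log2(LPKM + 0.01). Tests were tested on simulated data. Counting ran in Python 3.11.15 with pandas 2.3.3. The genes, gene lists and tests were chosen with earlier results of these data known. The named genes were the 6 members, the 9 partners, the 25 other adhesion receptors and, per member and assay, the 2 most alike genes, of which those in the text are given. Intervals at 95% (Wilson for shares, exact Poisson for densities) cover counting error only.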

Additional observations from a re-analysis of the deposited data

Results flagged for a closer look

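The following contrasts went one way in both libraries of a tissue and the opposite way in both libraries of another, with only 2 libraries per tissue. The difference between the tissues was not tested in any of them. With 2 libraries, both can fall on the same side by scatter alone, so such a contrast can arise without any tissue effect. Each difference given below is between the highest and the lowest mean among tissues whose 2 libraries went the same way. That choice favours large differences, so nothing is read from them. For the SSB strand ratio of Tenm2, brain and heart had the strand of the gene higher and bone marrow and sperm the opposite strand, and the means of heart (0.25) and bone marrow (-0.24) differed by 0.489 on the log2 scale. For Tenm3 the SSB strand ratio was positive in heart and PBMCs and negative in bone marrow and brain, with a difference of 0.436 between PBMCs and brain. The AP strand ratio of Tenm3 was positive in bone marrow, heart and PBMCs and negative in sperm, with a difference of 0.276 between heart and sperm. In Adgrl3 the ratio of the 5′ to the 3′ part was positive in bone marrow and sperm for both assays and negative in liver, for AP sites also in PBMCs. The difference between bone marrow and liver was 0.470 for SSBs and 0.330 for AP sites.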

How the results depend on the processing

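Of 792 values under alternatives, 714 kept their direction and their side of the threshold or stayed near the main value. The tissue calls of Tenm2 and Tenm3 for SSBs were the least stable. They numbered 0 without TMM, with summed counts, with thinning, without positions in more than 1 gene, without bone marrow, without sperm and in DESeq2, where the calls over all genes were 15, 16, 10, 13, 3, 7 and 4 in place of 48. Leaving out 1 library gave 0 to 2 calls among the 6 genes and 4 to 65 over all genes. Neither gene was called without bone marrow replicate 1, heart replicate 1, liver replicate 1 or either sperm library. Only Tenm3 was called without bone marrow replicate 2, and only Tenm2 without brain replicate 2 or heart replicate 2. For AP sites the calls over all genes were 0 to 2. The causes were not tested. Left-out libraries, thinning and the removal of overlaps also leave fewer samples or positions, and the part of that was not tested either.

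SSB strand calls among the 6 genes fell from 1 to 0 with thinning, and TMM exchanged Adgrl3 for Tenm4. Over all genes they were 114 with TMM, 135 with thinning and 449 in DESeq2 against 674, and those for AP sites were 0 with thinning and in DESeq2, 8 without overlaps and 1 to 8 with 1 library left out, against 5. With TMM the SSB strand ratios of Tenm2 (-0.14), Tenm3 (-0.15) and Adgrl1 (-0.045) became negative, as did those of Tenm2 (-0.0015) and Tenm3 (-0.026) with thinning. None of these passed a threshold. With 1 library left out, the SSB strand ratio ranged from -0.014 to 0.049 for Tenm2 and from -0.041 to 0.063 for Tenm3, the AP strand ratio of Tenm3 from -0.039 to 0.0014, the SSB ratio of 5′ to 3′ part of Adgrl2 from -0.017 to 0.065 and the AP one of Adgrl3 from -0.0013 to 0.035. The last was -0.031 with thinning and -0.0025 without overlaps. Calls of a higher 5′ or 3′ part numbered 394 with thinning and 687 in DESeq2 against 1850 for SSBs, and 2417 and 2592 against 4544 for AP sites. The 3 teneurin genes passed for SSBs and AP sites under every alternative run, the comparison of the first with the last of 3 equal parts included. The ratio of sperm to bone marrow of Tenm2 for SSBs was 1.33 with thinning and 1.54 with positions within genes as denominator, against 1.46.

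The labels do not say whether a replicate number stands for the same animal in every tissue. The correlations that follow cannot decide it, since each tissue gives a single difference between 2 libraries. Deviations of same-numbered libraries correlated with r of -0.042 to 0.074 for SSBs (0 of 15 tissue pairs above 0.1) and -0.30 to 0.24 for AP sites (4 of 15), and the mean r of a tissue with the others was above 0 in 5 and 4 of 6 tissues. With the replicate number as a block, 59 genes passed the SSB tissue test, Tenm2 and Tenm3 among them, and 0 the AP test. Without library as the block, 754 and 4 genes passed the strand tests and 2349 and 4970 the tests of gene parts, for SSBs and AP sites, with 1, 0, 3 and 4 of the 6 genes. At this depth, tissue differences in Adgrl1 could not be detected within its counting error, and RNA levels and other ages were not used here.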
